A study of Mus musculus with 4 samples.

Results

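The genes described here are 8 grouped as lymph node retention and homing genes: Klf2, Klf3, S1pr1, S1pr4, Ccr7, Ccr9, Cd69 and Cd44. They were chosen by name, with earlier results of these data known. All 8 were found among the 50686 Ensembl identifiers of the count tables and had enough reads to be tested. The study measured bulk RNA-seq of mouse cells, with 1 library each of WT and Yap KO cells unstimulated and 1 of each stimulated. The source is labelled spleen together with lymph node, with RNA taken from cultured cells. The titles of the stimulated libraries carry the number 24 without a unit. The stimulus, the cell type, how long the unstimulated cells were kept, the strain, the age, the number of animals and the Yap allele, with any promoter that drives its deletion, are not stated in the labels or files read here. Yap1, the transcript of the targeted gene, had 1 and 0 reads in the unstimulated and 3 and 2 in the stimulated WT and Yap KO libraries, too few to check the genotype labels. Reads assigned to genes numbered 19935523 to 25419974 per library.

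A resting T cell enters a lymph node with the help of CCR7, a receptor for chemokines made by the node, and leaves by following sphingosine 1-phosphate (S1P), a lipid that is more abundant in lymph and blood, with its receptor S1PR1. KLF2, a zinc finger transcription factor of quiescent T cells, is known to switch on S1pr1. KLF3 binds similar CACCC sequences and acts mainly as a repressor. Antigen receptor signalling shuts down Klf2, and CD69, a surface protein that appears early in activation, binds S1PR1 and takes it off the surface, so that activated cells are held in the node. S1PR4 is a related S1P receptor of lymphocytes, CCR9 guides cells to the small intestine, and CD44 is the hyaluronan receptor that is high on activated and memory T cells.

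Markers of T cells were abundant. The 8 genes, among them the CD3 chains and Lck, summed to 4511 CPM in WT and 4750 in Yap KO unstimulated cells. After stimulation the sums were 2041 and 1904 CPM. CPM is the usual count scaled to library size, by total reads in genes for sums over a list, with TMM factors for single genes. Cd8a and Cd8b1 together had 2231, 2346, 588.8 and 504.4 CPM in the same order, while Cd4 had at most 3 reads in any library. Of 6 endothelial markers, Cdh5, Lyve1, Prox1 and Tie1 were at 0 in every library; the sum of all 6, 161.5, 120.7, 11.25 and 9.731 CPM, was nearly all Pecam1, which T cells also express. Of 6 stromal markers Pdpn and Ccl21a were at 0, and the sum was at most 20.54 CPM. The 9 B cell markers summed to 1188, 1128, 413.6 and 369.7 CPM, most of it Ighm, while Pax5 had at most 7 reads; the 4 gamma-delta T cell markers summed to 301.6, 539.4, 23.12 and 36.57 CPM. Plasma cell (4 genes), NK cell (5), macrophage or monocyte (6), dendritic cell (6), neutrophil (5) and erythroid or platelet (6) markers each summed to at most 40.25 CPM in any library, and of these Pf4 was at 0 throughout.

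The 5 promoters below are the letters before the start site of the genes for which RefSeq promoter windows were at hand (GRCm38.p6, 5′ to 3′ on the gene's strand); they are shown because 4 of these genes fell together on stimulation and the fifth, Cd44, rose. S1pr1, Ccr7 and Cd69 had no window. Each window was cut at its first base in an exon of the gene in GENCODE models. The Ccr9 letters lie outside its exons but inside its annotated span, chr9:123678439-123784330, so they are not upstream of the whole gene. Capitals mark CACCC or GGGTG, the box that KLF factors bind, and, in Klf2, CTA and TAG with any 4 bases between them, a box of MEF2 factors.
Klf2, chr8:72318812-72319032, plus strand: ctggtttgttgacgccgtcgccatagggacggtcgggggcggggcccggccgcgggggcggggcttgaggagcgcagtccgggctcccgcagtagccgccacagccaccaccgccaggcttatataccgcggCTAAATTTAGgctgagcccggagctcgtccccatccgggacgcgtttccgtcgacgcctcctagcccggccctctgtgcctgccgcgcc
Klf3, chr5:64803271-64803387, plus strand: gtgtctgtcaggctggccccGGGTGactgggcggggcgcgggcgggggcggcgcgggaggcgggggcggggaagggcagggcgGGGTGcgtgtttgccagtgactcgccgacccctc
S1pr4, chr10:81500138-81500387, minus strand: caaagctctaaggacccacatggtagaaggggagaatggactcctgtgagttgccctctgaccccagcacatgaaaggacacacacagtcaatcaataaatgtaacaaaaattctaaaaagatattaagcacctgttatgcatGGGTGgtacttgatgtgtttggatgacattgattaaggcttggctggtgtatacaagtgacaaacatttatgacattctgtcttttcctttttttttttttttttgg
Ccr9, chr9:123766961-123767168, plus strand: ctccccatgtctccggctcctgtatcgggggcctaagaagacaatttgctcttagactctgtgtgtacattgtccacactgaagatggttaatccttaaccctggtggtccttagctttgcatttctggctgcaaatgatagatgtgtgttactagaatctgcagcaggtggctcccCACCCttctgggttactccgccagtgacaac
Cd44, chr2:102901666-102901915, minus strand: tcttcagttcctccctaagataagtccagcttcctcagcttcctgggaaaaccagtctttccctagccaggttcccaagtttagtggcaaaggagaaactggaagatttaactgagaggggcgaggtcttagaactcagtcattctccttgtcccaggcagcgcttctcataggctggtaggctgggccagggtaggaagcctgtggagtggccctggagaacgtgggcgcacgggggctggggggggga
Klf2 held 1 MEF2 box, CTAAATTTAG, with its first base at -118 from the RefSeq start site. That box was found in 3.2% of 32851 promoter windows of 250 bases. Klf3 held 2 KLF boxes in the letters shown, at -230 and -167, S1pr4 held 1 at -107, Ccr9 held 1 at -73, and Cd44 held none. In the whole windows of 250 bases, with the bases that were cut off, Klf2 held 1 KLF box, Klf3 5, S1pr4 1, Ccr9 1 and Cd44 none. The short KLF box was present in 52.0% of all such windows, so that finding it in a promoter is common. The forkhead box GTAAACA, searched on both strands because FOXO1 acts upstream of Klf2, matched none of the 5 windows and 3.17% of all. A match is a match of letters, and binding was not measured.

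Stimulated cells held far fewer transcripts of Klf2, Klf3, both S1P receptors and Ccr9, more of Ccr7 and Cd44, and a level of Cd69 between those of the unstimulated libraries. In an additive edgeR fit over the 4 libraries, which estimates 1 effect of stimulation common to both genotypes, 5 of the 8 genes fell (Klf2, Klf3, S1pr1, S1pr4, Ccr9), 2 rose (Ccr7, Cd44) and Cd69 did not pass. With 1 library per group, the p-values and SEs of this effect ask whether the change was alike in both genotypes. They do not measure the spread between cultures or animals. Among the 15394 genes tested, 67.4% passed this test, 33.3% higher and 34.1% lower, so that 7 of 8 is not far from the share of all genes. The size of the falls was less common. All 5 genes were at least 4-fold lower in both genotypes, a drop that 8.62% of genes showed, and Klf2, S1pr1 and Ccr9 were at least 16-fold lower in both, as were 1.25% of genes. Counted by size in each genotype, at least 2-fold with an interval clear of no change, 7 of the 8 differed in WT cells (47.6% of all genes did), 2 higher (23.4%) and 5 lower (24.2%). In Yap KO cells 6 differed (47.9%), 1 higher (22.5%) and 5 lower (25.4%), as Cd44 was just short of it. The median stimulation effect of the 8 was -3.31 on the log2 scale, against -0.05 for all genes tested. Because the 8 were chosen with earlier results of these data known, their sizes beside those of all genes are not independent evidence. Since the RNA came from bulk cultures, fewer cells of a type and less RNA per cell cannot be told apart. T cell markers also fell in 6 of 8 cases and both Cd8 genes fell, by 1.62 (Cd8a) and 2.24 (Cd8b1) on the log2 scale, as did 4 of 4 gamma-delta and 6 of 8 tested B cell markers. The part of such shifts in the results was not tested.

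**Figure D1:**
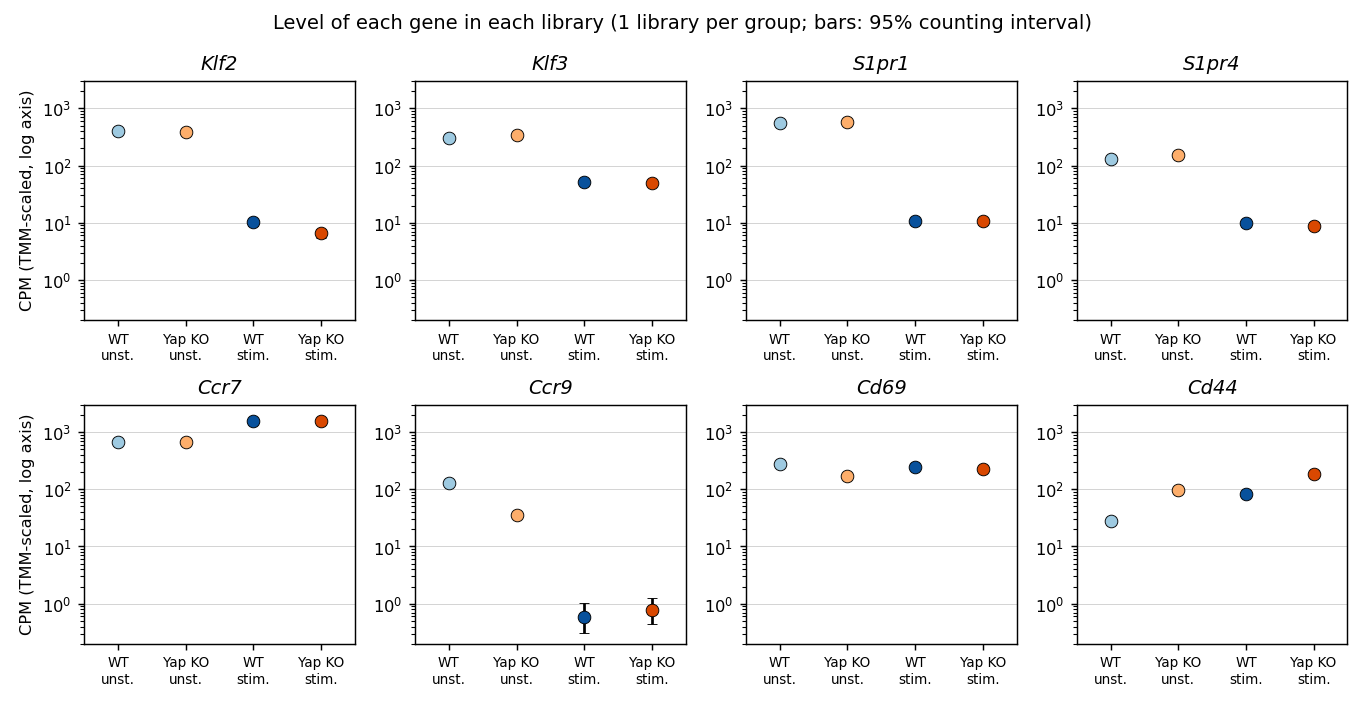
Level of each of the 8 genes in each of the 4 libraries, in TMM-scaled CPM on a log axis; points are single libraries and bars the exact 95% Poisson interval, which covers counting error only. Klf2, Klf3, S1pr1, S1pr4 and Ccr9 sit far lower in both stimulated libraries, Ccr7 sits higher, and Cd44 is higher in Yap KO than in WT cells in both states.

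Klf2 (ENSMUSG00000055148, chr8:72319033-72321656 on GRCm38, plus strand, 3 exons) gave 9337 reads in WT unstimulated and 10148 in Yap KO unstimulated cells, against 207 and 126 in the stimulated libraries of the same genotypes. Scaled for depth these are 407.9, 391.0, 10.14 and 6.533 CPM. Both stimulated libraries were thus far under both unstimulated ones, 39.9-fold lower in WT (exact 95% interval 35.0 to 46.4, counting error only) and 59.1-fold lower in Yap KO cells (50.2 to 71.9). The fitted effect was -5.60 ± 0.18 (log2, SE; adjusted p = 4.29e-08, edgeR quasi-likelihood test with Benjamini-Hochberg adjustment over all genes). Klf2 transcripts were also 1.54-fold lower in Yap KO than in WT cells once stimulated (1.24 to 1.95), while the unstimulated pair differed by 1.04-fold.

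Klf3 (ENSMUSG00000029178, chr5:64803388-64832901, plus strand) changed less than Klf2. Its reads numbered 6869 and 8850 in WT and Yap KO unstimulated cells and 1041 and 947 in the stimulated ones, or 300.1, 341.0, 51.01 and 49.1 CPM. The stimulation effect was -2.68 ± 0.13 (log2, SE; adjusted p = 3.09e-07, edgeR). Over 404 bases its exons lie opposite those of Gm20033, which had 422, 446, 62 and 31 reads; without a stated strand setting the reads of such pairs cannot be told apart. Per kilobase of exon, Klf2 was 8.27 times as abundant as Klf3 in WT unstimulated cells (8.02 to 8.54) and 6.98 times in Yap KO unstimulated cells (6.78 to 7.18). After stimulation this ratio was 1.21 (1.04 to 1.41) in WT and 0.81 (0.667 to 0.976) in Yap KO cells. These ratios take the union of all exons as the length, which for Klf3 is 11243 bases against 5221 in its longest transcript. With the longest transcript they were 3.84 (3.72 to 3.97) and 3.24 (3.15 to 3.34) before stimulation, and 0.562 (0.482 to 0.653) in WT and 0.376 (0.310 to 0.453) in Yap KO cells after it. Which of the pair was more abundant in WT stimulated cells thus depends on the length, whereas the ratio was lower after stimulation with either.

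The rest of the KLF family moved both ways. Of 15 other Klf genes, 9 were tested, 3 fell and 1 rose, and their median effect was 0.19. Klf13, a factor of T cells, fell by 1.70 on the log2 scale (SE 0.13, adjusted p = 4.18e-06, edgeR) and Klf7 by 1.60. Klf9 rose by 1.89, from 29 and 43 reads to 104 and 111. Of 10 genes that act upstream of Klf2, 5 fell and none rose: Foxo1, the factor that sustains Klf2, S1pr1 and Ccr7 in resting T cells, had 344.2 and 340.2 CPM in WT and Yap KO unstimulated and 111.7 and 74.97 CPM in stimulated cells. Its fitted effect was -1.90 ± 0.15 (adjusted p = 5.92e-06, edgeR). Mef2c fell by 1.66 on the log2 scale from at most 86 reads in a library. Map2k5 (0.02) and Mapk7 (-0.24), kinases of the ERK5 route that also feeds Klf2, did not pass the test; these were picked out after their values were seen.

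S1pr1 (ENSMUSG00000045092, chr3:115710433-115715072, minus strand) carries the exit signal itself. It had 12873 reads in WT and 15240 in Yap KO cells before stimulation, and 220 and 206 after it, or 562.3, 587.2, 10.78 and 10.68 CPM. The 2 genotypes were close in both states, and stimulated cells were 51.7-fold lower in WT (45.7 to 59.9) and 54.5-fold lower in Yap KO (47.9 to 63.4). The stimulation effect was -5.74 ± 0.15 (adjusted p = 2.37e-08, edgeR).

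S1pr4 (ENSMUSG00000044199, chr10:81497747-81500132, minus strand, 1 exon) fell too, but less far. Reads were 3004 and 4041 in WT and Yap KO unstimulated and 202 and 168 in the stimulated cells, or 131.2, 155.7, 9.899 and 8.71 CPM, with an effect of -3.94 ± 0.16 (adjusted p = 1.27e-07, edgeR). Per kilobase, S1pr1 was 3.36 times as abundant as S1pr4 in WT unstimulated cells (3.23 to 3.49) and 2.95 times in Yap KO unstimulated cells (2.85 to 3.06). In stimulated cells this ratio was 0.853 (0.702 to 1.04) in WT and 0.96 (0.78 to 1.19) in Yap KO, and both intervals include equal levels.

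Of 15 other tested genes of the S1P system 10 fell and 1 rose, and their median effect was -0.70. S1pr5, an exit receptor of NK cells and some effector T cells, had 96 and 278 reads in WT and Yap KO unstimulated cells and 1 and 2 in stimulated ones. Arrb1, which encodes a beta-arrestin that uncouples activated receptors, fell by 1.88 on the log2 scale (SE 0.22, adjusted p = 6.1e-05, edgeR). Gnai3, an inhibitory G protein subunit, was the 1 gene that rose, by 0.30 (adjusted p = 0.048, edgeR). Most falls in this list were smaller than those of the receptors.

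Ccr7 (ENSMUSG00000037944, chr11:99144196-99155077, minus strand, 3 exons) rose. Its reads numbered 15416 in WT and 17539 in Yap KO unstimulated cells, and 31592 and 30562 in the stimulated pair, or 673.4, 675.8, 1548 and 1585 CPM. Both stimulated libraries were above both unstimulated ones, by a log2 ratio of 1.20 (1.17 to 1.23) in WT and 1.23 (1.20 to 1.26) in Yap KO cells, and the fitted effect was 1.22 ± 0.13 (adjusted p = 3.99e-05, edgeR). Per length Ccr7 was the most abundant of the 8 genes in every library. Set against S1pr1, the entry receptor was 1.84 times as abundant per kilobase as the exit receptor in WT unstimulated cells (1.80 to 1.89) and 1.77 times in Yap KO unstimulated cells (1.73 to 1.81). After stimulation this ratio was 221.1 (193.7 to 253.6) in WT and 228.5 (199.2 to 263.3) in Yap KO cells.

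**Figure D2:**
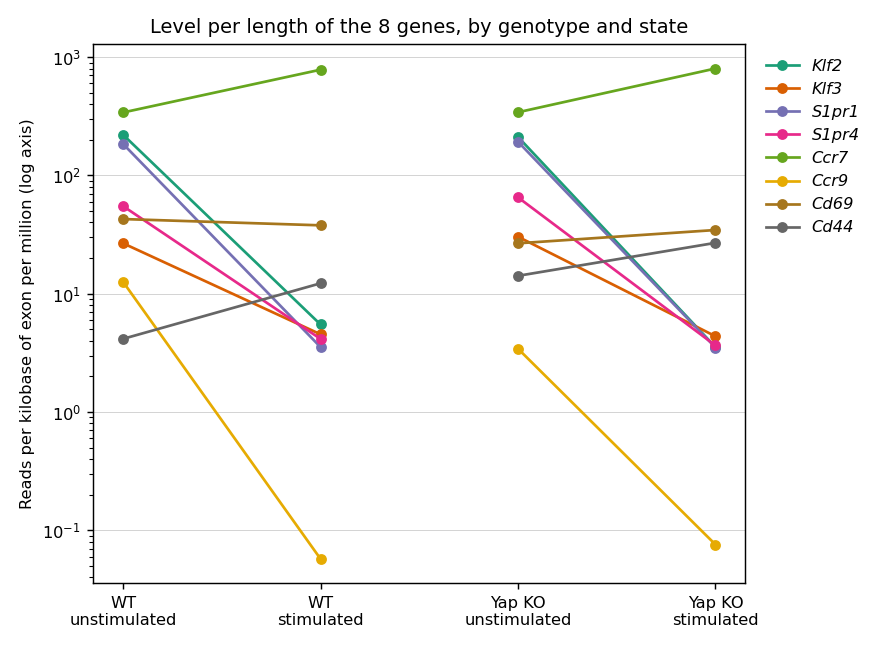
Level of the 8 genes per length, in CPM per kilobase of union exon on a log axis, with a line joining the unstimulated and stimulated library of each genotype. Ccr7 is the highest gene in all 4 libraries, Klf2 and S1pr1 drop from just under it to between 3.506 and 5.492, and Cd69 stays between 26.67 and 42.76.

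Ccr9 (ENSMUSG00000029530, chr9:123678439-123784330, plus strand) was nearly gone after stimulation. It had 2962 reads in WT unstimulated and 913 in Yap KO unstimulated cells, but 12 and 15 in the stimulated WT and Yap KO libraries, or 129.4, 35.18, 0.588 and 0.778 CPM. The stimulated libraries were 190-fold lower in WT (126.0 to 426.0) and 40.7-fold lower in Yap KO (27.3 to 81.2), and the fitted effect was -6.79 (adjusted p = 5.4e-08, edgeR). Part of its exons, 1932 bases, lies opposite AC165425.1, which had 190, 47, 0 and 0 reads, and 269 bases overlap Gm17200 on the same strand, with 155, 116, 182 and 163 reads. How the counting split these reads was not tested.

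Of the other receptors for entry and positioning 17 were tested, of which 12 fell and 4 rose; the median effect was -1.69, and is also -1.69 with Gpr15, unread after stimulation, set to its bound. Cx3cr1, a receptor of effector cells, had 150 and 414 reads in unstimulated and 13 and 2 in stimulated cells. Gpr15, a receptor that guides cells to the colon, had 34 and 356 reads in WT and Yap KO unstimulated cells and 0 in both stimulated libraries, at least 10.1-fold lower in WT and at least 88.2-fold lower in Yap KO cells when 0 is set to 3 counts per library. Cxcr4, the receptor for the chemokine that holds cells in bone marrow, fell by 1.94, and Cxcr3 by 2.51. Ccr8 had 0 and 11 reads in unstimulated and 81 and 70 in stimulated cells, and Ccr4, a receptor of activated and skin-homing T cells, rose by 2.32.

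Among 25 genes of the migration and adhesion machinery 18 fell and 2 rose, and the median effect was -1.72. Itgb7, the beta chain that pairs with Itga4 for entry into gut tissue and with Itgae for binding epithelium, fell by 4.64 on the log2 scale (SE 0.21, adjusted p = 1.77e-07, edgeR), from 1116 and 1202 CPM to 58.51 and 36.86 CPM. Itgae fell by 5.03, from 121.7 and 48.47 CPM to 2.597 and 2.281 CPM; it was picked out after its values were seen. Itgal, a chain of LFA-1, fell by 1.69. Myo1f, a motor protein, fell by 5.70, and Itga1 had 116 and 128 reads in unstimulated and 2 in each stimulated library. Itgb1 rose by 1.38, and Myo1g by 0.53.

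Cd69 (ENSMUSG00000030156, chr6:129267325-129275436, minus strand), the protein that pulls S1PR1 off the surface, had 6372 reads in WT and 4505 in Yap KO cells without stimulation, and 5026 and 4336 with it, or 278.3, 173.6, 246.3 and 224.8 CPM. The stimulated libraries lay between the 2 unstimulated ones. Cd69 was 1.13-fold lower after stimulation in WT cells (1.09 to 1.17) and 1.29-fold higher in Yap KO cells (1.24 to 1.35), and the additive effect was 0.10 ± 0.15 (log2; adjusted p = 0.582, edgeR). It was the 1 gene of the 8 with ratios of opposite sign in the genotypes and both intervals clear of no change, as were 1.87% of all genes. The sign of so small an additive effect turned with upper quartile scaling, to -0.02, where the median of all genes went from -0.05 to -0.16. It also depended on single libraries: with state as the only term it was -0.25 without Yap KO unstimulated cells (adjusted p = 0.2, edgeR) and 0.43 without WT unstimulated cells (adjusted p = 0.0609). Because S1pr1 fell, the ratio of S1pr1 to Cd69 per kilobase went from 4.32 (4.19 to 4.45) to 0.0935 (0.0814 to 0.107) in WT cells. In Yap KO cells it went from 7.23 (6.99 to 7.48) to 0.102 (0.0878 to 0.117). These ratios take the union of all exons as the length. With the longest transcript the ratio went from 3.3 to 0.0714 in WT and from 5.52 to 0.0775 in Yap KO cells, so it was lower after stimulation with either length.

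Cd44 (ENSMUSG00000005087, chr2:102811141-102901665, minus strand, 19 exons) had 644 reads in WT and 2490 in Yap KO unstimulated cells, and 1693 and 3515 in stimulated ones, or 28.13, 95.94, 82.96 and 182.2 CPM. Stimulated cells held more than unstimulated cells of the same genotype, 2.94-fold in WT (2.69 to 3.23) and 1.90-fold in Yap KO (1.80 to 2.00). However, Yap KO unstimulated cells were above WT stimulated cells, so the states overlapped. The fitted effect was 1.23 ± 0.16 (adjusted p = 0.000142, edgeR), and the call rests on the genotype term: with state as the only term the adjusted p was 0.145, and over fits of that kind without 1 library each it ranged from 0.0219 to 0.619. It was lost without WT unstimulated, without WT stimulated or without Yap KO stimulated cells. Hmmr, another hyaluronan receptor and a gene of mitosis, had 28 and 9 reads in unstimulated and 2573 and 2788 in stimulated cells. Among 10 tested genes of CD44 partners and hyaluronan, 4 rose and 5 fell, with a median effect of -0.39. Cd24a rose by 2.41 on the log2 scale, while Msn, which links CD44 to actin, fell by 1.61 and Hyal1, a hyaluronidase, by 1.68. Has1 and Has2, 2 of the enzymes that make hyaluronan, were at 0 in all libraries, as was Esrp1, a splicing factor of CD44.

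**Figure D3:**
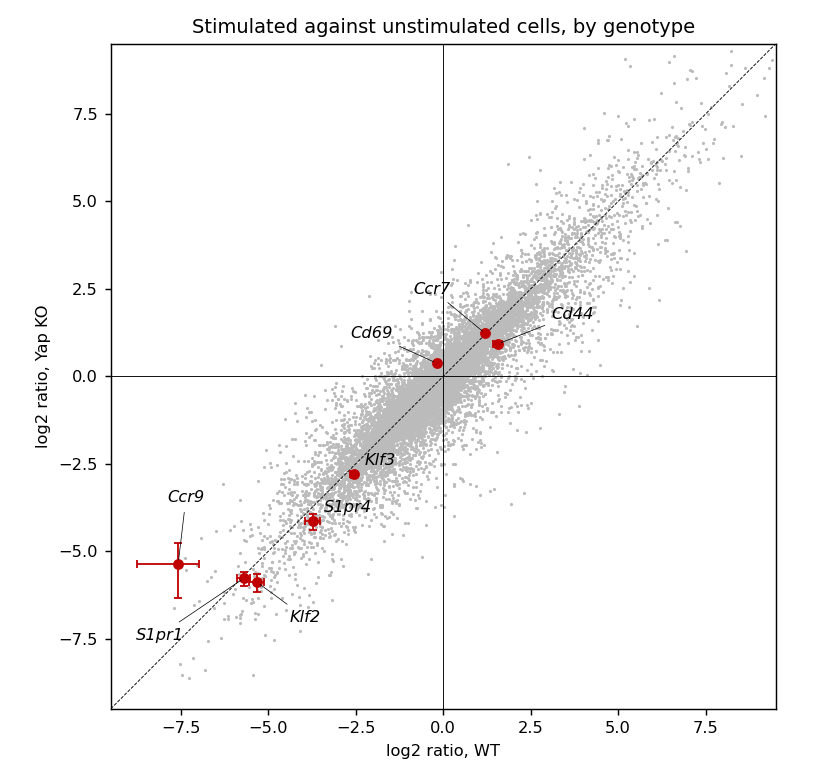
Log2 ratio of stimulated over unstimulated cells in WT (horizontal axis) and Yap KO (vertical axis) for 15394 tested genes (grey), with the 8 genes in red; bars are exact 95% intervals of counting error, the dashed line marks equal ratios, and 2 genes lie outside the axes. Ccr9 lies above the dashed line, and Cd69 has a negative ratio in WT and a positive one in Yap KO. Cd44, Klf2, S1pr4 and Klf3 lie below the line by less than 2-fold, and S1pr1 and Ccr7 lie on it within counting error.

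Cells that settle in tissue are known for low Klf2 and S1pr1 and for CD69. Of 14 genes that mark such resident T cells, all tested, 6 rose and 8 fell, with a median effect of -0.97. Bhlhe40, a factor of resident cells, rose by 4.82 on the log2 scale (SE 0.16, adjusted p = 4.29e-08, edgeR) and Xcl1, a chemokine, by 3.93. Cdh1, the gene of E-cadherin, had 76 and 509 reads in WT and Yap KO unstimulated and 1 and 3 in stimulated cells, and Itga1 fell as given above. In the list of memory-phenotype CD8 T cell genes, to which high Cd44 belongs, 8 of 15 fell and 4 rose, with a median of -0.99. Fasl rose by 2.46 and Tbx21 by 1.65, while Ly6c2 fell by 4.39 and Ccl5 by 4.17. Of the genes named from these lists, Klf7, Foxo1, Mapk7, S1pr5, Cx3cr1, Gpr15, Msn, Xcl1 and Bhlhe40 have exons opposite those of another gene, so their counts carry the same doubt as those of Klf3.

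**Figure D4:**
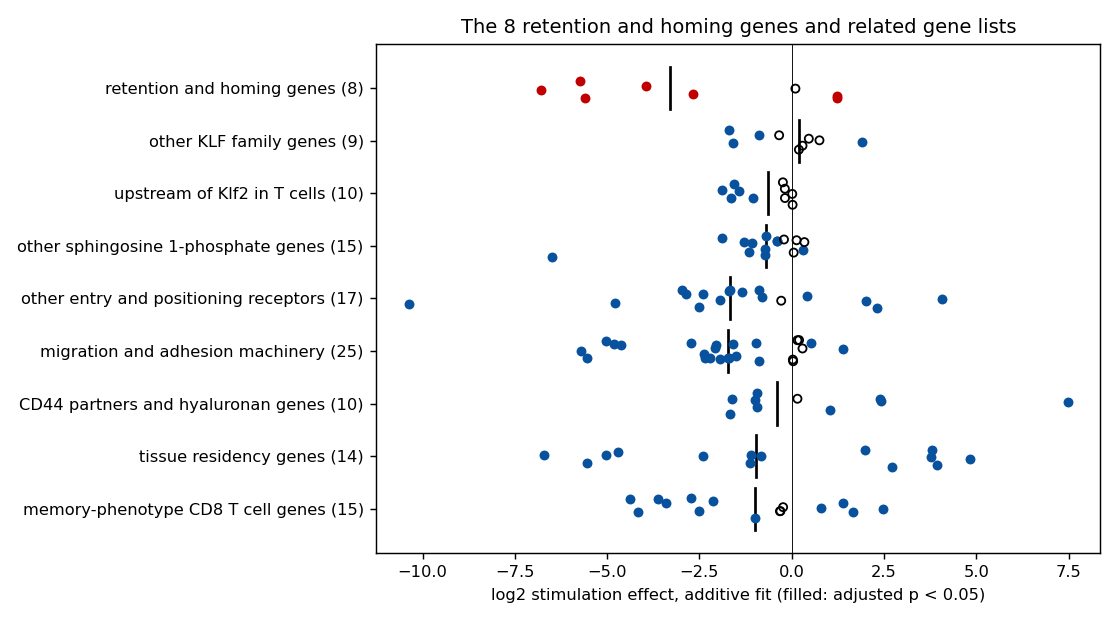
Log2 stimulation effect of the additive fit for the tested genes of each list, with the number of tested genes in parentheses; filled points passed the test at an adjusted p of 0.05, open points did not, and short vertical lines are medians. The 8 genes have a median of -3.31 and the other lists medians between -1.72 and 0.19; the leftmost point, Gpr15, has no stimulated reads and its position is no bound.

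Between the genotypes Cd44 differed and, in unstimulated cells, Ccr9 did; the remaining 6 did not pass the test. The additive fit called 1 of the 8 genes higher in Yap KO cells (Cd44) and 1 lower (Ccr9). Of all genes tested 1.4% were called, 0.838% higher and 0.559% lower. These p-values take the 4 libraries as the whole source of spread, with 1 library per group, so they say nothing of the spread between animals. For Cd44 the effect was 1.45 ± 0.17 (log2; adjusted p = 0.00419, edgeR), and Yap KO cells were 3.40-fold higher when unstimulated (3.13 to 3.72) and 2.20-fold higher when stimulated (2.07 to 2.33). A difference of at least 2-fold higher in both states was seen in 0.955% of genes. The Cd44 call was lost when genes with few reads were kept in the test (adjusted p = 0.1) and with genotype as the only term (adjusted p = 1.0); over the other settings tried it ranged from 2.59e-09 to 0.0138.

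For Ccr9 the fitted effect was -1.61 ± 0.20 (adjusted p = 0.00681, edgeR), but it comes from the unstimulated pair. There Yap KO cells were 3.67-fold lower (3.41 to 3.97), whereas the stimulated libraries, with 12 and 15 reads, gave a log2 ratio of 0.35 with an interval of -0.79 to 1.63. That interval, which covers counting error only, includes no difference. It does not reach the log2 ratio of the unstimulated pair, -1.88 (-1.99 to -1.77), although smaller differences could be missed at that depth. The Ccr9 call was lost with DESeq2 (-0.83, adjusted p = 1.0), with the earlier edgeR quasi-likelihood method (adjusted p = 0.0612), without the filter on low counts (adjusted p = 0.0896) and with genotype as the only term (adjusted p = 1.0); the scalings and the stricter filter gave 0.00348 to 0.0154. Itgae was also lower in Yap KO cells when unstimulated, by a log2 ratio of -1.33, although it did not pass the fit (adjusted p = 0.0908).

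Cd69 was 1.60-fold lower in Yap KO than in WT unstimulated cells (1.54 to 1.67) and 1.10-fold lower in stimulated cells (1.05 to 1.14), and it did not pass (adjusted p = 0.323, edgeR). Klf2 did not pass either (-0.29 ± 0.16, adjusted p = 0.549). Klf3, S1pr1, S1pr4 and Ccr7 had effects between 0.02 and 0.07 and adjusted p of 0.9 to 0.977. For S1pr1 and Ccr7 the log2 ratio was 0.06 and 0.01 in unstimulated and -0.01 and 0.03 in stimulated cells. By size alone, at least 2-fold with an interval clear of no difference, 2 of the 8 differed in unstimulated cells (7.4% of all genes), 1 higher in Yap KO (4.12%) and 1 lower (3.27%). In stimulated cells 1 differed (7.46%), being higher (3.07%), and none was lower (4.38%). None of the 8 had ratios of opposite sign in the 2 states with both intervals clear of no difference, as 8.88% of all genes had.

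**Figure D5:**
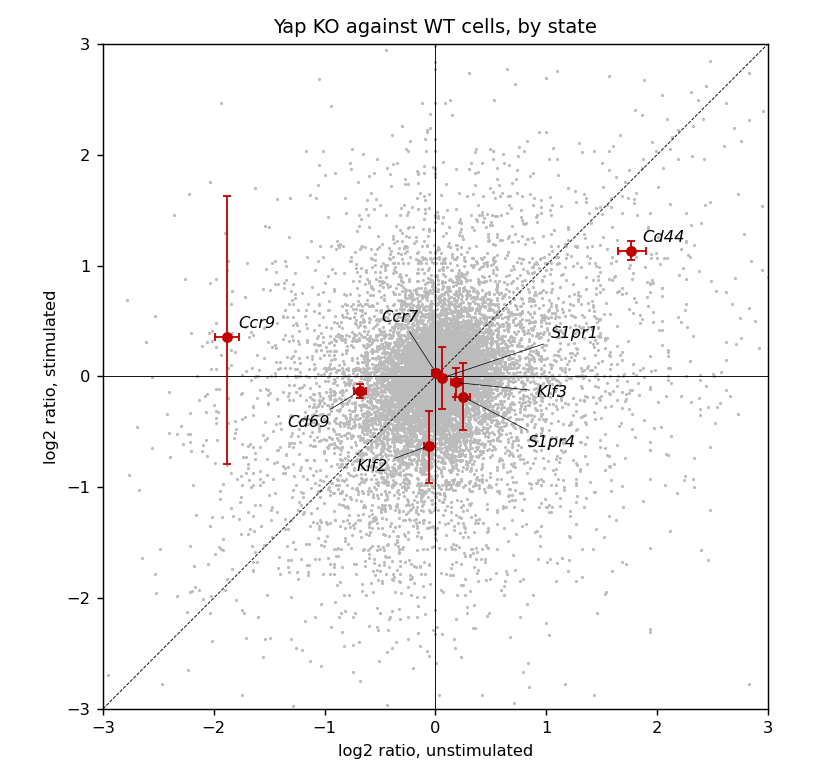
Log2 ratio of Yap KO over WT cells when unstimulated (horizontal axis) and stimulated (vertical axis) for the tested genes (grey), with the 8 genes in red; bars are exact 95% intervals of counting error, the dashed line marks equal ratios, and 94 of 15394 genes lie outside the axes. Cd44 is higher in both states, Ccr9 is lower when unstimulated with a wide interval when stimulated, and S1pr1, Klf3, S1pr4 and Ccr7 lie near the centre.

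Whether the genotypes responded differently could only be described, since no degree of freedom is left for a test. The log2 ratio after stimulation in Yap KO minus that in WT was 2.22 for Ccr9 (1.20 to 3.25, counting error only), the sole gene of the 8 at least 2-fold apart, against 7.76% of all genes, 3.05% higher and 4.72% lower in Yap KO. Its unstimulated libraries were 3.67-fold apart, and the stimulated ones held at most 15 reads. The same difference was 0.55 for Cd69 (0.47 to 0.63), -0.57 for Klf2 (-0.89 to -0.25), -0.63 for Cd44 (-0.78 to -0.48), -0.43 for S1pr4 (-0.73 to -0.13) and -0.24 for Klf3 (-0.37 to -0.10). For S1pr1 (-0.08, -0.35 to 0.20) and Ccr7 (0.03, -0.01 to 0.07) the intervals include no difference.

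Genes of memory-phenotype CD8 T cells, among which high Cd44 is a classic mark, were set beside it. Of 15 memory-phenotype CD8 T cell genes, 7 passed as higher and none as lower: Cxcr3, Ccl5, Fasl, Klrc1, Il18r1, Il18rap and Itgb1. The list was drawn up with earlier results of these libraries in view, so its direction is not independent evidence. Cxcr3, the receptor for interferon-induced chemokines, had 43.29 CPM in WT and 179.3 in Yap KO unstimulated cells, and 6.223 and 36.6 CPM in the stimulated ones, an effect of 2.27 ± 0.16 (adjusted p = 0.000341, edgeR). The list's median log2 ratio was 1.26 in unstimulated and 0.53 in stimulated cells, against 0.03 and -0.001 for all genes, and its summed level was 2513 and 4926 CPM in unstimulated and 1438 and 1862 CPM in stimulated cells. Among the entry receptors Cxcr3 and Gpr15 were called higher, among the residency genes 3 of 14 (Zfp683, Xcl1 and Cdh1) and in the adhesion list 2 of 25 (Itgb1 and Myo1f); no gene of these lists was called lower. No other KLF gene, upstream gene, S1P gene or CD44 partner was called in either direction by edgeR.

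Markers of other cell types moved with these differences. Of 4 gamma-delta T cell markers, Sox13 and Cd163l1 were called higher in Yap KO cells. The B cell marker Blk was (34, 131, 2 and 40 reads), and so were the dendritic cell marker Itgax (144, 607, 22 and 143 reads) and the stromal marker Pdgfrb (37, 459, 14 and 13 reads). The T cell markers and both Cd8 genes were not called, with median log2 ratios of 0.05 and 0.06 in unstimulated cells. The part of these cell types in the Cd44 and Ccr9 values was not tested.

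Among the 8 genes the closest pattern across the 4 libraries was that of Klf2 and S1pr1, with a distance of 0.46 between their centred log2 CPM values, and the next closest pair, Ccr7 and Cd69, was 1.22 apart. Over 9188 genes with a mean of at least 10 CPM, the nearest to Klf2 were Rab37 (0.18) and Phf1 (0.31), and to S1pr1 they were Cd1d1 (0.41) and Tlr12 (0.42). Klf3 was closest to Tnfaip8l2 (0.05), and S1pr4 to Ehd3 and Zfp652, both at 0.13. Ccr7 lay closest to Hdac2 and Myo5a, both at 0.04, and Cd69 to Gm45902 (0.10) and Myo9a (0.11). The pattern of Ccr9 had less close matches, Hspa1a (0.62) and Hspa1b (0.83), near-identical copies whose reads the counting could split, and Cd44 had Gsto1 (0.38) and Snx9 (0.48). With 4 points such distances describe these libraries only; Phf1, Zfp652, Hspa1a and Myo9a also lie opposite exons of another gene.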

How the data were processed

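RNA-seq of 4 mouse libraries was used, 1 each for WT and Yap KO cells, unstimulated and stimulated, grouped by title. The deposited values are raw read counts per Ensembl gene in the layout of HTSeq; the build used was mm9, per the submitters' processing notes; aligner, annotation release and strand setting: not given in the sources used here. Of all entries, 35.6% to 39.7% were reads in genes and 48.31% to 52.46% fell in no feature; such summary rows were left out. Symbols came from a reference table (50376 of 50686 identifiers matched), and positions and lengths from GENCODE M21 on GRCm38, which is not the authors' build, so lengths are approximate.

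Counts were tested with edgeR 4.0.16 (quasi-likelihood, TMM scaling, a minimum count of 10 in the filter by state) under genotype plus state, leaving 1 residual degree of freedom, with Benjamini-Hochberg adjustment at 0.05 over 15394 genes. Ratios of 2 libraries used a prior count of 2 and exact 95% binomial intervals, which cover counting error only. The code was tested on simulated data. DESeq2 1.42.0, other scalings and filters were alternatives; the earlier edgeR method was added after seeing the data. Genes named are the 8, the 2 largest rises and falls among called genes of each list, Foxo1, S1pr5, Cxcr4, Cxcr3, Itgb7 and Itgal, and the 2 nearest patterns per gene; those called for genotype, in the lists or as markers, and others said to be so, were chosen after their values were seen. The 8 genes and all lists were chosen with earlier results of these data known. Some genes that the rule names are not reported here.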

Additional observations from a re-analysis of the deposited data

Results flagged for a closer look

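Cd69 went in opposite directions in the 2 genotypes. Stimulated cells had a log2 ratio to unstimulated cells of -0.18 in WT (-0.23 to -0.12) and 0.37 in Yap KO (0.31 to 0.43), a gap of 0.549 (0.469 to 0.630, counting error only). With 1 library per group the difference was not tested. Both stimulated libraries, at 246.3 and 224.8 CPM, lay between the unstimulated WT (278.3) and Yap KO (173.6) libraries.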

How the results depend on the processing

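With 1 library per group, intervals cover counting error only, and no value of the spread between cultures or animals exists. No paired analysis was possible because all 4 titles carry the replicate number 1, so that a block by number is the same for every library; the genotype term of the fit already compares states within each genotype. No result changed sign past its threshold. Leaving out genes with exons opposite another gene gave 3291 genes higher and 3456 lower after stimulation, with 3 of the 8 genes lower, since Klf3 and Ccr9 were then not tested. With state as the only term 1 of the 8 was called higher. Without 1 library each, under that term, 1 to 2 of the 8 were higher and 5 lower, and 3899 to 4126 genes were higher and 3517 to 4093 lower. For genotype, 129 genes were called higher and 86 lower. Total counts as the only scaling gave 56 lower. Without a low-count filter 23 were higher and 18 lower, with 0 and 0 of the 8 (2049 genes had an unadjusted p under 0.05, edgeR), and without genes opposite another 73 and 47, with 0 of the 8 lower because Ccr9 was not tested. DESeq2 and the earlier edgeR method, added after seeing the data, each called 0 of the 8 lower, with 820 and 1546 genes at an unadjusted p under 0.05. With genotype as the only term 0 genes and 0 of the 8 were called in either direction by edgeR, with 70 genes at an unadjusted p under 0.05; that term leaves the spread between states in the error. The cause of the other shifts was not tested. Levels per length of Klf3, Ccr9, Cd69 and Cd44 depend on the length used: with the longest transcript Klf3 in WT unstimulated cells was 57.47 instead of 26.69. Among the 8 genes stimulated Ccr9 had the fewest reads, 12 and 15.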
